A study of Mus musculus with 4 samples.

Results

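The genes described here are 39 members of the lysosomal machinery: 13 subunits of the vacuolar proton pump with 2 accessory subunits, and 24 hydrolases, membrane proteins and lipid-handling proteins of the lysosome. They were taken by symbol from the gene names of the deposited count table, which lists 53801 genes, and leave out resorption genes such as Ctsk and Tcirg1. All 39 were found, each under 1 identifier, and all 39 passed the filter on low counts that left 17462 genes for testing.

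The study sequenced RNA of osteoclast precursor cells; 2 C57BL/6 mice of wild-type genotype gave the cells. Each preparation, called precursor cells 1 and precursor cells 2, was kept for 3 h either with PBS, the vehicle, or with DKK1 at 200 ng/ml, which gave 4 libraries in 2 pairs. DKK1 (dickkopf 1) is a secreted inhibitor of Wnt signalling that binds the LRP5 and LRP6 co-receptors. The labels name no age, sex, tissue of origin or culture factor, and every library came from wild-type cells. Same-numbered libraries were taken to come from the same mouse, and each mouse is represented by 1 preparation.

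Lysosomes break down proteins, lipids and sugars with hydrolases that work best in acid. The acid is made by the vacuolar ATPase, a rotary pump whose V1 sector splits ATP in the cytosol and turns a V0 ring in the membrane that carries protons inward. Osteoclasts use the same pump and the same secretory lysosomes to dissolve bone, and their monocyte-macrophage precursors already hold a large lysosomal compartment. Many lysosomal genes carry an E-box in the promoter, part of the CLEAR element that the MiT/TFE transcription factors (TFEB, TFE3, MITF, TFEC) bind.

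The libraries held 41163663 to 53537927 gene counts. All 13 markers of monocytes and osteoclast precursors were detected in every library, Lyz2 and Csf1r among them. Between preparations, 6 of the 13 were called higher in precursor cells 2 and 3 lower at an edgeR adjusted p under 0.05. Over all tested genes 17.9% were higher and 15.9% lower. The 13 genes summed to 32759 to 32871 CPM (normalised read count, library sizes scaled by TMM) in precursor cells 1. In precursor cells 2 they summed to 24882 to 25380. Lyz2 alone was 24782 to 24909 CPM, then 14288 to 14685. Of 8 markers of mature osteoclasts, Calcr was at 0 counts in all libraries, and the fusion genes Dcstamp and Ocstamp had 15 to 96 and 20 to 86 counts per library. The other 5 were well detected, Mmp9, Acp5 and Itgb3 with 10132 to 33102 counts per library, and the list summed to 1045 to 1295 CPM. The preparations also differed in markers of other cells. Summed over 11 neutrophil genes, the level was 5344 to 5465 CPM in precursor cells 1, against 9928 to 10028 in precursor cells 2. Over 10 B cell genes it was 269 to 397 and 150 to 164, and over 8 erythroid genes 73.8 to 105 and 125 to 161. Over 8 dendritic cell genes the sum was 382 to 428 and 955 to 1016, of which Bst2 alone was 355 to 404 and 933 to 992; 3 of the 8 were called higher and 3 lower. No gene of these 4 lists was at 0 in all libraries. The B cell and erythroid sums were lower with DKK1 in both pairs. No gene of those lists was called with DKK1 at an edgeR adjusted p under 0.05. In bulk RNA, fewer cells of a type and less RNA per cell cannot be told apart.

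The promoters show what part of this gene set shares the E-box. RefSeq promoter entries on GRCm38.p6 (250 bases before to 50 bases after a start site) were found for 32 of the 39 genes. The palindrome CACGTG stood in 11 of those 32 (34.4%), counting a gene where any of its entries matched. Counted alike, it stood in 8.09% of 27025 genes with an entry and 11.3% of the 11030 tested genes with one. The longer TCACGTG, searched on both strands and overlapping the first motif by construction, stood in 10 of 32 (31.2%), against 4.29% and 6.63%. With only the first entry of each gene, CACGTG stood in 9 of the 32, against 7.24% of all genes with an entry. TCACGTG then stood in 8 of the 32, against 3.84%. The stretches below, 30 bases each, are shown because they hold the motif in a pump subunit of each sector, a soluble protease, a channel and a membrane glycoprotein, with 1 case of the short form (Ctsl). Capitals mark CACGTG and each is read 5′ to 3′ on the gene's strand.
Atp6v0b, chr4:117887348-117887377, minus strand: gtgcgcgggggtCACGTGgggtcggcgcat
Atp6v1a, chr16:44139373-44139402, minus strand: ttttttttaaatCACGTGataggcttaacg
Ctsd, chr7:142387908-142387937, minus strand: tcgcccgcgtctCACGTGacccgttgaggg
Mcoln1, chr8:3500462-3500491, plus strand: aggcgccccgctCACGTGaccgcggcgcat
Lamp1, chr8:13159088-13159117, plus strand: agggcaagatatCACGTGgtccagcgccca
Ctsl, chr13:64370739-64370768, minus strand: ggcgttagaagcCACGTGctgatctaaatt

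Counted in bases from the start site, the motif shown began at -36 in Atp6v0b, -45 in Mcoln1, -61 in Lamp1, -98 in Ctsd, -131 in Atp6v1a and -236 in Ctsl. Lamp1 held 4 matches within its 300 bases, all of the longer form. Atp6v0b, Ctsa, Ctsd and Mcoln1 held 2 each. By role, 3 of 5 V0 subunits and both aspartic and serine proteases had a match, and none of 4 lipid-handling genes with an entry did. A match is a run of letters and not a measured binding site.

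**Figure D1:**
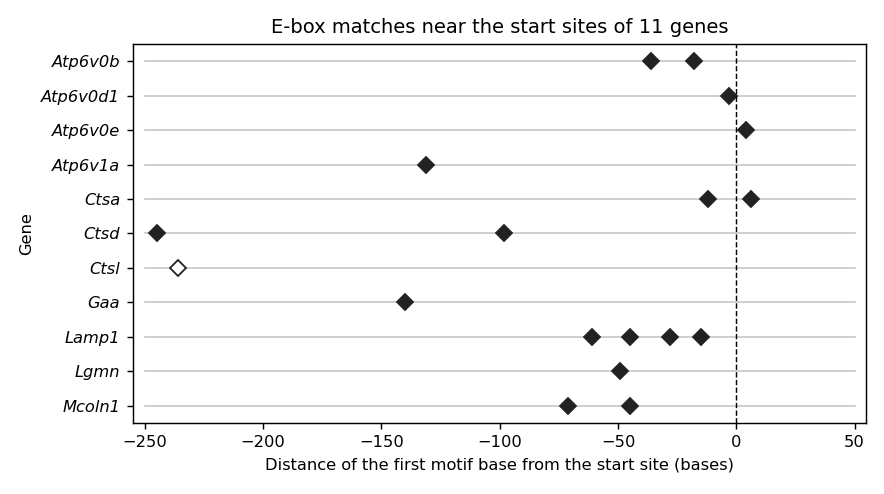
Position of each CACGTG match relative to the start site (x axis, bases; dashed line at 0) in the 11 genes that hold one (y axis); filled diamonds are the longer form TCACGTG and the open diamond is the short form alone. Matches lie between -245 (Ctsd) and 6 (Ctsa) bases from the start site, and Lamp1 has 4.

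The levels of the 39 genes spanned a 528-fold range of mean FPKM, the authors' length- and depth-scaled level, which is the scale used here to compare genes with each other. Psap, the precursor of the saposins that present lipids to hydrolases, was highest with a mean of 3318 FPKM. Cathepsin S (Ctss, mean 2294), cathepsin D (Ctsd, 2005) and cathepsin B (Ctsb, 1301) followed. Only Psap, Ctsd and Ctsb were above 1000 FPKM in all 4 libraries, since Ctss ran from 925 to 3713. The lowest were Mcoln1, the TRPML1 cation channel (6.28 FPKM), and Atp6v1h, a regulatory V1 subunit (7.30 FPKM).

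Pump subunits and accessory subunits lay between 6.48 and 152 FPKM. The proteolipid Atp6v0c, many copies of which form the rotating ring, was highest among them (107 to 152 FPKM). In the order of all 39 genes, 29 of 38 neighbours overlapped in their ranges over the libraries, so much of the fine order is not resolved. Ranges of direct neighbours parted after Ctsd, Lgmn, Grn and Ctsc in the upper part of the order. They parted after Atp6ap2, Atp6v0e, Atp6v1e1, Neu1 and Atp6v1d in the lower part. Genes farther apart can still overlap across such a gap, so not every gap splits the order. Ctss, ranked above Ctsd, overlapped Ctsb (1158 to 1449 FPKM). Ctsh (29.4 to 94.6 FPKM), ranked above Atp6ap2, overlapped Atp6v1a (38.6 to 49.9 FPKM).

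The 39 genes took 4.03% of all counts in both libraries of precursor cells 1, and 5.18% (PBS) and 5.26% (DKK1) in precursor cells 2. Psap, Ctsb and Ctsd alone took 2.13% to 2.66%. The 15 pump and accessory genes together took 0.276% to 0.319%.

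**Figure D2:**
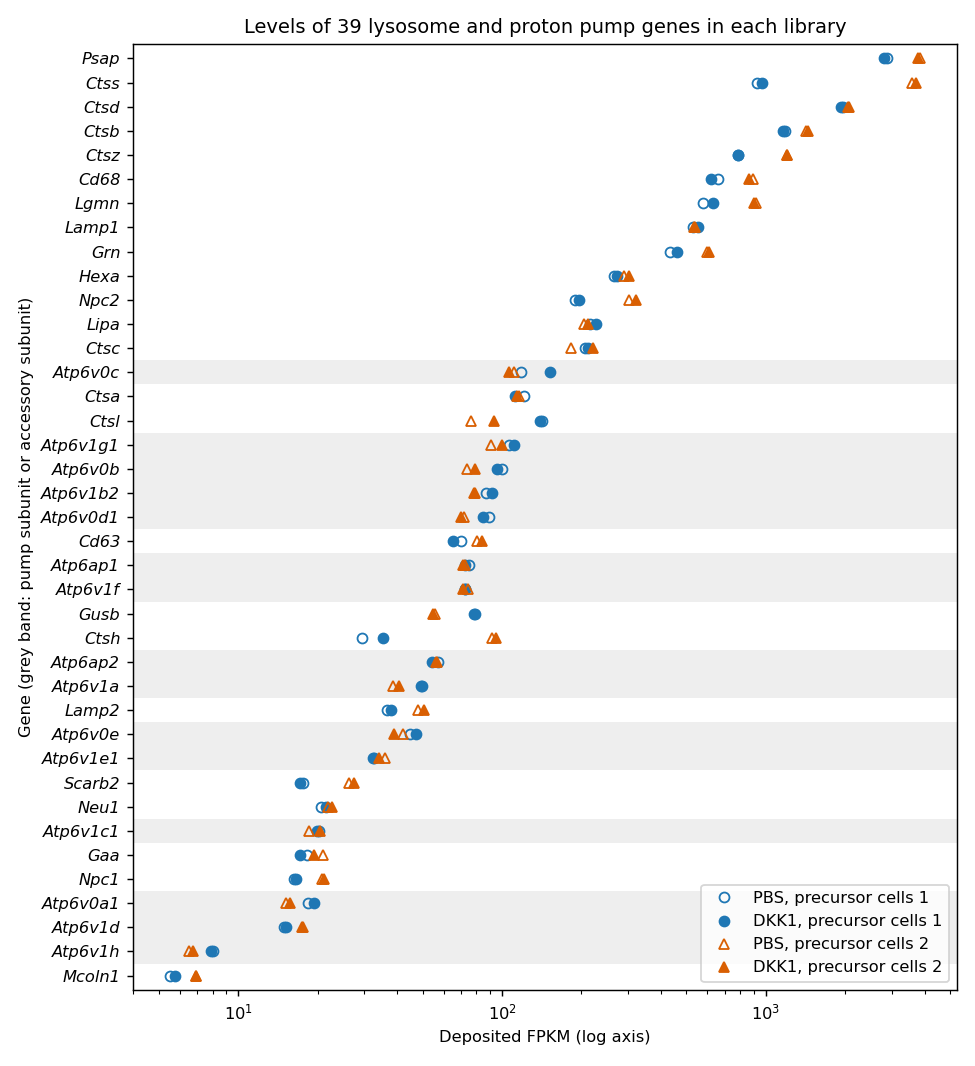
Deposited FPKM (x axis, log scale) of the 39 genes (y axis, ordered by mean) in the 4 libraries; circles are precursor cells 1, triangles precursor cells 2, open symbols PBS and filled symbols DKK1. Psap, Ctss, Ctsd and Ctsb lead, and the 15 pump and accessory genes (grey bands) lie between 6.48 and 152 FPKM.

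DKK1 against PBS asks whether the Wnt inhibitor altered transcripts within 3 h. At an adjusted p under 0.05 in the quasi-likelihood test of edgeR none of the 39 genes was called, where 0.0401% of all tested genes were called higher and 0.0115% lower. Without adjustment none of the 39 had a p under 0.05 either (smallest 0.06, for Ctsc), against 4.47% of all tested genes. DESeq2 and limma-voom called none of the 39 at that adjusted p, and 0 and 3 of them had an unadjusted p under 0.05. Fitted log2 differences ran from -0.11 to 0.15 with a median of 0.02 (all tested genes -0.00), and 24 of the 39 were positive. Their median size was 0.04 on the log2 scale, against 0.12 over all tested genes. The median SE was also smaller, 0.06 against 0.16, so the smaller size alone does not show a weaker response. The edgeR adjusted p of the 39 genes lay between 0.959 and 0.998, with 1 residual degree of freedom.

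How large a response the data leave room for can be read from the 95% intervals of the fitted differences. Over the 39 genes these reached from 1.21-fold lower (Gaa, the acid alpha-glucosidase that degrades glycogen) to 1.31-fold higher (Atp6v0c). The distance from the fitted value to either end of the interval had a median of 0.14 on the log2 scale, against 0.39 over all tested genes. A missed threshold does not show that levels were equal, and these intervals rest on 2 pairs.

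Among the pump subunits, Atp6v0c had 418 CPM with PBS and 535 with DKK1 in precursor cells 1. In precursor cells 2 it had 442 and 424. The treated library was thus higher in the first pair and lower in the second (log2 differences of 0.36 and -0.06), and the fitted difference was 0.15 ± 0.10 (SE; edgeR adjusted p = 0.959). A processed pseudogene, Gm15487, shares near-identical sequence with Atp6v0c. It had 2067 to 3134 counts per library beside 17084 to 30370 for Atp6v0c, and with the near-identical models summed the difference was 0.12.

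Atp6v1g1, a subunit of the peripheral stalk, had 126 and 122 CPM with PBS and 131 and 133 with DKK1. It is 1 of 2 members whose treated libraries both lay above both PBS libraries. The difference was 0.09 (95% interval -0.06 to 0.25). Groups parted upward in this way for 2 of the 39 genes, against 7.93% of all tested genes, and downward for none, against 8.31%. For Atp6v1g1 this holds for its own counts only. A near-identical pseudogene, Gm13453, had 608 and 591 counts in precursor cells 1 (PBS, then DKK1) and 38 and 63 in precursor cells 2. Atp6v1g1 itself had 7101 and 7458, then 4716 and 5776. With the pseudogene added, the treated library of precursor cells 2 would lie below the PBS library of precursor cells 1 in CPM. The other 11 subunits of the V0 and V1 sectors and the accessory subunits Atp6ap1 and Atp6ap2, which help assemble and direct the pump, had fitted differences between -0.06 and 0.06.

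Among the proteases, cathepsin C (Ctsc), a dipeptidyl peptidase that activates serine proteases of granules, had 1258 CPM with PBS and 1277 with DKK1 in precursor cells 1. In precursor cells 2 the values were 1245 and 1508. It is the other gene whose groups did not overlap, and nearly all of the difference came from the second pair (0.02 and 0.28). The fitted value was 0.15 ± 0.06 (SE; 95% interval -0.01 to 0.31; edgeR adjusted p = 0.959).

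Cathepsin H (Ctsh), an aminopeptidase, had 139 CPM with PBS and 166 with DKK1 in precursor cells 1, then 485 and 500 in precursor cells 2. Here the first pair carried the difference (0.26 and 0.04). Cathepsin L (Ctsl), an endopeptidase, had 963 and 939 CPM in precursor cells 1, then 583 and 710 in precursor cells 2. Its pairs went opposite ways (-0.04 and 0.29). The most abundant enzymes differed little: the fitted value was -0.00 for Ctsb (-0.06 to 0.06), -0.02 for Ctsd (-0.08 to 0.04) and 0.06 for Ctss (-0.01 to 0.12), with 95% intervals in parentheses.

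Membrane and lipid-handling genes had differences of similar size. Cd68, a macrophage membrane glycoprotein, had 866 CPM with PBS and 809 with DKK1 in precursor cells 1, against 1322 and 1271 in precursor cells 2 (fitted -0.08, 95% interval -0.17 to 0.01). Npc2, which hands cholesterol to the membrane transporter NPC1, had 1071 and 1112, then 1940 and 2063 (0.07, -0.01 to 0.16). Over all 39 genes the sign was the same in both pairs for 27 (69.2%), against 51.7% of all tested genes. Medians in the pairs were 0.02 and 0.02.

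**Figure D3:**
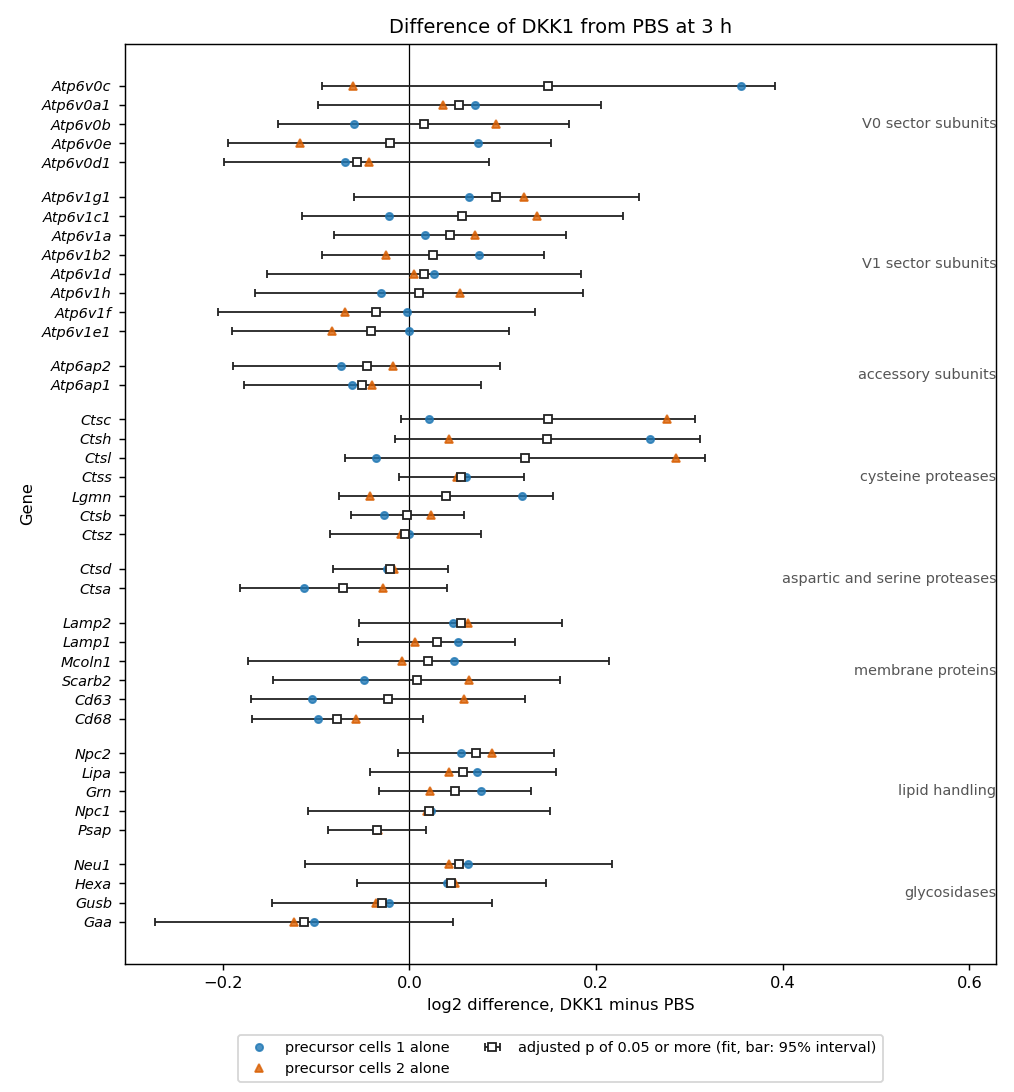
Fitted log2 difference of DKK1 from PBS (x axis; squares, with 95% intervals as bars) for the 39 genes by role (y axis), with the difference in precursor cells 1 (circles) and precursor cells 2 (triangles) alone. All squares are open, meaning an edgeR adjusted p of 0.05 or more, and the pairs lie farthest apart for Atp6v0c and Ctsl.

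The authors' deposited tables, 1 for each pair, list all 39 genes and mark none as significant. At an FDR under 0.05 those tables hold 2 of the 39 in each pair, all higher with DKK1. For precursor cells 1 the authors' deposited table gives Atp6v0c (log2 ratio 0.36) and Ctsh (0.26), against 9.11% of its genes higher and 9.92% lower at that FDR. For precursor cells 2 it gives Ctsc (0.28) and Ctsl (0.29), against 8.24% higher and 8.49% lower. No gene is in both sets, and each table sets 1 library against 1, so its FDR does not include the spread between mice.

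More of the 39 genes were called between the preparations than between the treatments. Between precursor cells 2 and 1, each measured with and without DKK1, 22 of the 39 genes were higher and 2 lower at an edgeR adjusted p under 0.05. Over all tested genes 17.9% were called higher and 15.9% lower. The median log2 difference was 0.26, against -0.00 over all tested genes. The libraries of the preparations did not overlap for 27 genes that were higher in precursor cells 2 (33.7% of all tested genes) and 7 that were lower (35.3%). Each preparation comes from 1 mouse, so this compares 2 preparations, and mouse, culture and library handling cannot be told apart.

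The scale matters for the smaller differences. Scaling to total counts in place of TMM moved the median of all tested genes from -0.00 to -0.17. That of the 39 genes moved from 0.26 to 0.09, and relative to all genes it was 0.26 under both. A change of scaling shifts all genes by about the same amount, so this equality was fixed in advance and tests nothing. Calls among all tested genes went from 3129 higher and 2784 lower to 2196 (12.6%) and 4193 (24.0%). For the 39 genes they went from 22 and 2 to 16 and 8.

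Cysteine proteases varied most: 5 of 7 were higher in precursor cells 2 and 1 was lower, with the same counts under total-count scaling. Ctss, which trims the invariant chain of MHC class II, had 1314 and 1370 CPM in precursor cells 1 (PBS, then DKK1) and 5717 and 5921 in precursor cells 2. The gap between preparations was many times the gap within either. Ctss (ENSMUSG00000038642, chromosome 3, 95526786 to 95556403 on GRCm38) thus differed by 4.34-fold, a log2 difference of 2.12 ± 0.03 (SE; edgeR adjusted p = 1.97e-06), the largest of the 39 genes.

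Ctsh (ENSMUSG00000032359, chromosome 9, 90054152 to 90076089) was 3.25-fold higher (log2 1.70 ± 0.07 SE, edgeR adjusted p = 2.91e-05) from the values given above. Cathepsin Z (Ctsz), a carboxypeptidase, had 1179 CPM in both libraries of precursor cells 1 and 2040 and 2028 in precursor cells 2. Legumain (Lgmn), which cleaves after asparagine and processes other cathepsins, had 1401 and 1523, then 2520 and 2448. These were 1.73-fold and 1.70-fold higher. Ctsb, the most abundant by counts after Psap, had 7448 and 7310, then 10132 and 10294 CPM, a 1.38-fold difference.

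Ctsl (ENSMUSG00000021477, chromosome 13, 64359337 to 64370890) went the other way. It had 963 and 939 CPM in precursor cells 1 against 583 and 710 in precursor cells 2, without overlap. The difference was 1.48-fold lower (log2 -0.56 ± 0.08 SE, edgeR adjusted p = 0.00354). Ctsc was not called (log2 0.11, edgeR adjusted p = 0.23).

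The make-up of the cathepsin transcripts differed between preparations. Of the summed FPKM of 8 cathepsins, Ctss was 17.3% and 18.1% in precursor cells 1, against 40.9% and 41.5% in precursor cells 2. Ctsd was 36.7% and 36.2%, then 23.7% and 23.0%. Ctsl was 2.66% and 2.60%, then 0.873% and 1.04%. Within each preparation the PBS and DKK1 libraries were within 1 percentage point of each other for all 8 cathepsins.

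**Figure D4:**
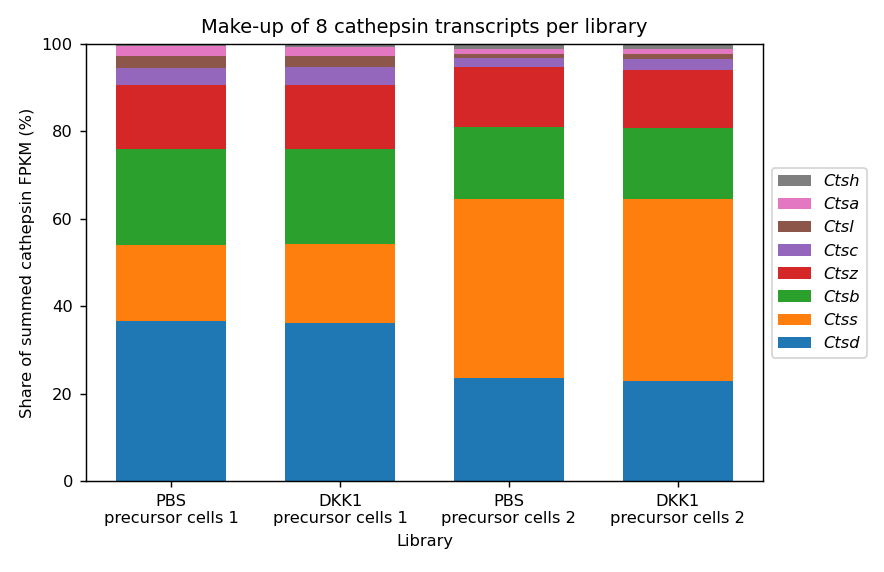
Share of each of 8 cathepsins in their summed FPKM (y axis, percent, stacked to 100) in the 4 libraries (x axis). Ctss is 17.3% and 18.1% in precursor cells 1, against 40.9% and 41.5% in precursor cells 2, and the PBS and DKK1 bars of a preparation look alike.

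Ctsd, the main aspartic protease of lysosomes, had 4818 and 4737 CPM in precursor cells 1, against 5739 and 5675 in precursor cells 2, a 1.19-fold difference (edgeR adjusted p = 0.000908). Cathepsin A (Ctsa), a serine carboxypeptidase that protects NEU1, had 595 and 550, then 643 and 630. Its log2 difference of 0.15 (edgeR adjusted p = 0.0466) was -0.02 under total-count scaling. Exons of Ctsa overlap those of Pltp and Neurl2 on the opposite strand, and the strand setting of the counting is not stated. With the overlapping models summed the log2 difference was 0.51, so the value for Ctsa is uncertain.

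All 6 membrane proteins were higher in precursor cells 2, except that Lamp1 alone lost the call under total-count scaling (log2 0.16 against -0.01) and under upper-quartile scaling (0.11). Scarb2, the receptor that carries beta-glucocerebrosidase to lysosomes, had 116 and 112 CPM in precursor cells 1, against 194 and 203 in precursor cells 2, a 1.74-fold difference. Cd68 was 1.55-fold higher and Lamp2, a structural glycoprotein also needed for autophagy, 1.49-fold higher. Lamp2 had 367 and 379 CPM, then 543 and 567. Lamp1, the other main coat glycoprotein, had 1482 and 1536, then 1685 and 1692, a far smaller step. Mcoln1 had 43.8 and 45.3, then 61.8 and 61.5 CPM, and the tetraspanin Cd63 had 270 and 251, then 350 and 364. They were 1.38-fold and 1.37-fold higher; Cd63 has a near-identical pseudogene, and its log2 difference was 0.45 with and without it.

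Of 5 lipid-handling genes 4 were higher, under TMM and total-count scaling alike. Npc2 differed by 1.83-fold (edgeR adjusted p = 2.68e-05). Psap (ENSMUSG00000004207, chromosome 10, 60277627 to 60302597) had 8236 and 8034 CPM in precursor cells 1, against 12405 and 12116 in precursor cells 2, a 1.51-fold difference. Progranulin (Grn), which is cleaved to granulins inside lysosomes, was 1.52-fold higher, from 1576 and 1662 to 2449 and 2486 CPM. Npc1, which exports cholesterol, was 1.44-fold higher (log2 0.52, or 0.46 with overlapping models summed), from 182 and 185 to 262 and 266 CPM. Lipa, the acid lipase, was not called: it had 670 and 704, then 715 and 737 CPM.

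The 4 glycosidases were split. Gusb, beta-glucuronidase (ENSMUSG00000025534, chromosome 5, 129989011 to 130003049), had 377 and 371 CPM in precursor cells 1, against 298 and 291 in precursor cells 2. It was 1.27-fold lower (log2 -0.34 ± 0.05 SE, edgeR adjusted p = 0.0036). Hexa, a subunit of beta-hexosaminidase, had 553 and 569, then 684 and 708 CPM, and was 1.24-fold higher. Gaa had 91.6 and 85.3, then 119 and 109 CPM, and the sialidase Neu1 had 80.3 and 83.9, then 96.6 and 99.5. Gaa and Neu1 were 1.29-fold and 1.19-fold higher, with edgeR adjusted p of 0.00867 and 0.0315, and neither call held under total-count scaling.

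Counts for the pump and for the other members are given side by side, with no test between them. Of the 15 pump subunit and accessory genes 2 were called higher and none lower (median log2 -0.01). Under total-count scaling none of the 15 was higher and 6 were lower. Of the 24 hydrolases, membrane proteins and lipid-handling genes 20 were higher and 2 lower under TMM (median 0.47). Over all tested genes 17.9% were higher and 15.9% lower under TMM, or 12.6% and 24.0% under total-count scaling. The 2 pump genes were Atp6v1d of the central rotor (71.5 and 72.8 CPM in precursor cells 1, 94.6 and 94.9 in precursor cells 2) and Atp6v1e1 of the peripheral stalk (140 and 140, then 174 and 165). Their log2 differences were 0.39 and 0.28 under TMM and 0.22 and 0.11 under total-count scaling.

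The catalytic subunit Atp6v1a, which holds the ATP sites, had 311 and 315 CPM in precursor cells 1, against 275 and 289 in precursor cells 2. Its log2 difference was -0.15 (edgeR adjusted p = 0.0704), and -0.32 under total-count scaling, where it was called. Its partner Atp6v1b2 had 482 and 508, then 495 and 486 CPM (log2 -0.01), and -0.18 under total-count scaling. All 5 V0 subunits had negative fitted values and none was called under TMM; 3 of them (Atp6v0a1, Atp6v0b and Atp6v0d1) were called lower under total-count scaling. Atp6v0b, a second proteolipid of the ring, had 214 and 205, then 178 and 190 CPM (log2 -0.19, edgeR adjusted p = 0.071). Atp6v0d1, which couples the ring to the rotor, had 167 and 159, then 152 and 148 CPM.

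None of the remaining pump genes was called under TMM scaling. Atp6v1c1 and Atp6v1h, which help hold the sectors together, had 118 and 117, then 123 and 135 CPM, and 82.2 and 80.5, then 74.5 and 77.4 CPM. Under total-count scaling Atp6v1h was called lower (log2 -0.27). Atp6v1f of the rotor had 80.3 and 80.2, then 93.1 and 88.7. The accessory genes Atp6ap1 (238 and 228, then 259 and 252) and Atp6ap2 (156 and 149, then 175 and 173) had log2 differences of 0.14 and 0.19, with an edgeR adjusted p of 0.097 and 0.0533. Atp6ap2 was called with size factors of DESeq2, limma-voom, the stricter filter or preparation as the only term (adjusted p of 0.0347 to 0.0468 in edgeR and limma). Atp6v0c, Atp6v0e and Atp6v1g1 overlapped between preparations. For Atp6v1g1 the overlap would be lost with the counts of its pseudogene Gm13453 added, which were higher in precursor cells 1.

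**Figure D5:**
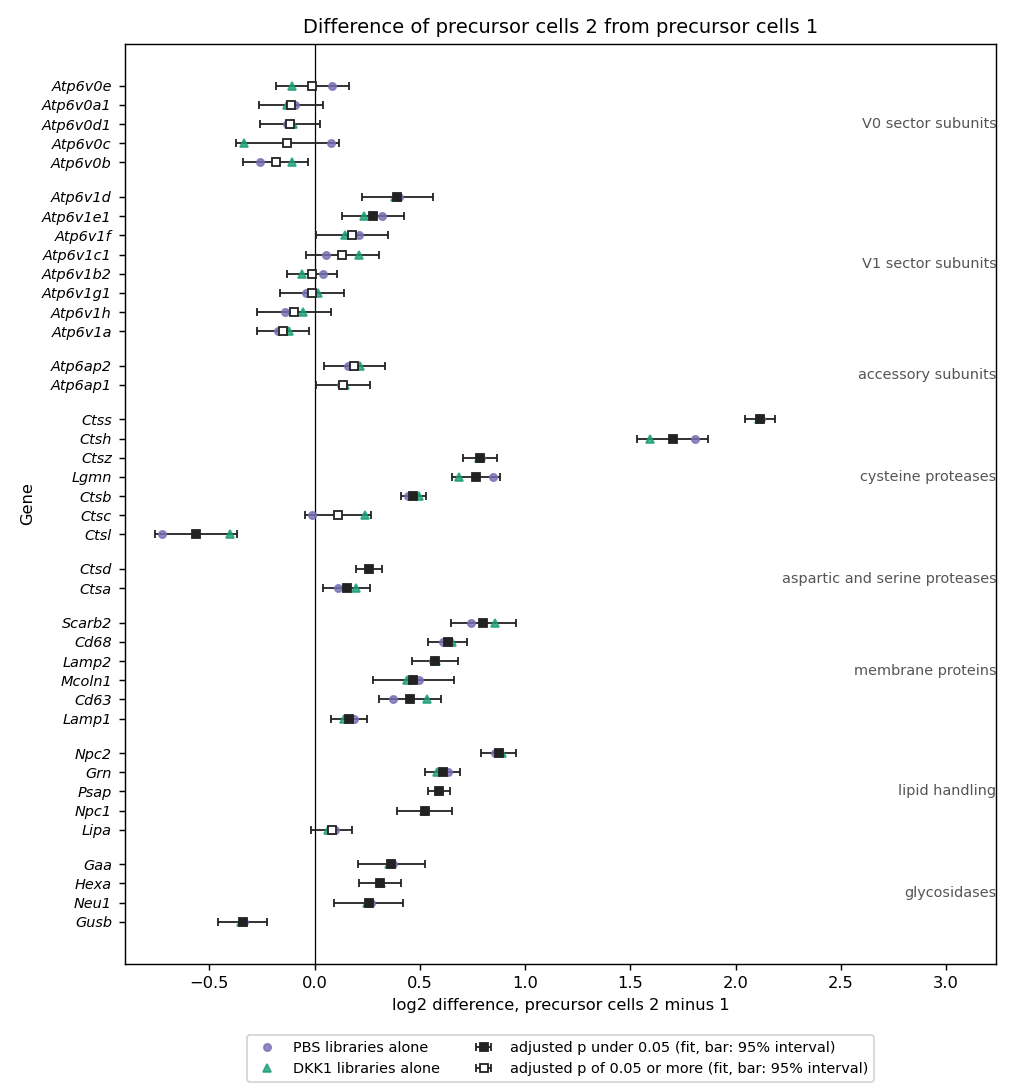
Fitted log2 difference of precursor cells 2 from precursor cells 1 under TMM scaling (x axis; squares with 95% intervals, filled where the edgeR adjusted p is under 0.05) for the 39 genes by role (y axis), with the PBS (circles) and DKK1 (triangles) libraries alone. Ctss and Ctsh lie farthest right and Ctsl farthest left; under total-count scaling 6 genes change sign (Ctsa and Lamp1, called under TMM, and Ctsc, Lipa, Atp6v1c1 and Atp6ap1, called under neither) and 6 pump subunits are called lower.

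Some calls near the threshold were lost with fewer libraries. Leaving out 1 library at a time, with the treatment term dropped, left 20 to 22 of the 39 genes called. Atp6v1e1 and Neu1 lost the call without any 1 of the 4 libraries. Ctsa lost it without each library but PBS 1, Lamp1 without each but DKK1 1, and Gaa without DKK1 1 or PBS 2. Atp6v0c became called without PBS 1 (log2 -0.31) and Ctsc without PBS 2 (0.25). Markers of precursors and of other cells differed between the preparations at an edgeR adjusted p under 0.05. Of 13 precursor genes 6 were higher and 3 lower in precursor cells 2. Among neutrophil genes 10 of 11 were higher, and all 10 B cell genes were lower. The part of these cells in the differences of the lysosomal genes was not tested.

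Other genes of the pathway, in 8 lists, gave 109 tested of 117. With DKK1, 1 was called (higher) and none was called lower. That gene was Rnasek, a small pump-associated protein, with 1007 counts with PBS and 2742 with DKK1 in precursor cells 1, then 458 and 1833. Its log2 difference was 1.61 ± 0.13 (SE, edgeR adjusted p = 0.0469), and the call was lost under upper-quartile and total-count scaling. It was also lost with no filter on low counts and with no replicate block, where no tested gene was called. Another gene model, Gm21988, overlaps Rnasek, and with the 2 summed the log2 difference was 1.07 (edgeR adjusted p = 0.0676). None of 18 genes for MiT/TFE factors and nutrient sensing, and none of 12 for enzyme sorting, was called with DKK1.

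Between the preparations 43 of the 109 were higher and 8 lower, where all tested genes had 17.9% and 15.9% (12.6% and 24.0% under total-count scaling). Of 30 further lysosomal hydrolases 19 were higher and 1 lower, or 15 and 4 under total-count scaling. Asah1, acid ceramidase, had a log2 difference of 1.16. Of 19 further membrane proteins 9 were higher and none lower, or 7 and 2 under total-count scaling. In both lists, as in the 24 members outside the pump, higher calls outnumbered lower ones under either scaling. Among 18 MiT/TFE and nutrient-sensing genes 1 was higher and 1 lower, or none and 6 under total-count scaling.

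The other pump isoforms included Tcirg1, the a3 subunit of the osteoclast pump, which was higher in precursor cells 2 (log2 0.85; 114 to 119 FPKM, then 181 to 192). The ubiquitous a1 isoform, the member Atp6v0a1, had 15.2 to 19.3 FPKM and was not called under TMM (log2 -0.11). Among resorption genes Ctsk, the collagen-degrading cathepsin of osteoclasts, was at 2.59 and 4.66 FPKM in precursor cells 1, against 16.3 and 14.6 in precursor cells 2. Of the cathepsin inhibitors 3 of 7 tested were higher and 2 lower, or 1 and 4 under total-count scaling. The 11 members with CACGTG had a median log2 difference between preparations of 0.15 and the 21 without it 0.31, and with DKK1 both medians were 0.02.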

How the data were processed

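Gene expression was measured by RNA-seq in 4 libraries. Reads were processed with fastp and HISAT2 against mm10, per the submitters' processing notes; for the counting program, its annotation and its strand setting the sources used here give nothing. Per gene, the deposited table has raw counts in whole numbers. The FPKM values, log2 ratios, p-values and FDR were made by the authors, per the file headers, 1 library against 1. Their tables' counts equal those of the count table.

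Counts were fitted with edgeR 4.0.16 (R 4.3.3; TMM, filterByExpr, quasi-likelihood) with terms for preparation and treatment over 17462 genes. They hold 99.9% of all counts. Adjusted p-values are two-sided Benjamini-Hochberg values over all tested genes, with a threshold of 0.05. Both contrasts share the residual spread, 1 degree of freedom, which edgeR moderates across genes. Whether the cells were cultured separately per library is not stated, so part of the spread may be technical. DESeq2 1.42.0 and limma 3.58.1 served as alternatives, with other scalings, filters and left-out libraries. Total-count scaling and sums over near-identical models were added after seeing the data. CPM are scaled with TMM, and differences within a pair use log2 CPM with a prior count of 2. Same-numbered libraries were treated as pairs because the labels number the cells of 2 mice. Their deviations from group means correlated at 0.726 and principal component 1 (76.1% of variance) parted the preparations. The fits were tested on counts simulated with the spread estimated here. Of changes set between DKK1 and PBS, 43.3% of 1.5-fold, 74.6% of 2-fold and 98.5% of 4-fold ones were called. Of 154 calls, 10 fell on genes with no change set.

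Coordinates and overlaps come from GENCODE M21 (GRCm38), near-identical models from BLAST 2.17.0 (95% identity or more, spanning 100 bases and 50% of the shorter model), promoters from RefSeq. The members and lists were chosen with earlier results of these data known. Every member may be named. Other genes were named by smallest p within their list, and marker genes by level. Calcr and Dcstamp were picked for their role, and Ocstamp and Itgb3 were also named outside the rule on level.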

Additional observations from a re-analysis of the deposited data

How the results depend on the processing

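With DKK1, none of the 39 genes was called under any alternative run, and limma-voom gave 3 of them an unadjusted p under 0.05. Over all tested genes the 9 calls became 5 with upper-quartile scaling, 0 with no filter on low counts (911 genes with an unadjusted p under 0.05), 46 with DESeq2, 2 with limma-voom, 3 with the legacy quasi-likelihood estimate and 3 with total-count scaling. With no replicate block, which drops the pairing, it was 0 (116 unadjusted). Without any 1 library it was 0 each time, in fits that drop the preparation term, and the members' median then ran from -0.149 to 0.126. Between preparations the 5913 calls became 3509 with no filter and 3194 to 4574 without 1 library (3346 without PBS 2). The members called numbered 20 to 25 over all alternatives, against 24. Total-count scaling turned Ctsa to -0.018 and Lamp1 to -0.009. With 2 libraries per treatment and 1 residual degree of freedom, precision rests on spread shared across genes; fits without 1 library hold unbalanced preparations. The causes of these shifts were not tested.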
